A study of Homo sapiens with 5 samples.

Results

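HSF1 and MYC were mapped on DNA in OVCAR8, an established human ovarian carcinoma cell line, and the promoter sites that hold both factors are described here. The peaks of each factor's 2 lists were merged where they shared 1 bp, and an interval was kept where it held a peak of both replicates, which left 2141 HSF1 and 11756 MYC intervals. A shared promoter site is an HSF1 interval that overlaps a MYC interval by at least 1 bp and whose midpoint lies within 1 kb of the 5′ end of a GENCODE protein-coding or lncRNA gene. There were 348 such sites among the 2141 HSF1 intervals, and 466 HSF1 intervals lay within 1 kb of a start site in all.

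The samples were 2 CUT&RUN libraries with an HSF1 antibody, 2 with a MYC antibody and 1 with control IgG. In CUT&RUN a nuclease tethered to the antibody cuts out the DNA around the bound protein, and these fragments are then read by sequencing. All were proliferating, untreated cells of the same line, 500000 per reaction, fixed with 1% formaldehyde for 1 minute. The line is 1 tumor-derived culture, and the labels do not say whether the 2 libraries of a factor came from separate cultures, so differences between them may be technical. The 4 lists were called on 8265647 to 10084407 fragments, each against the same IgG library, so all HSF1 and MYC heights share that background. The headers call this library IgG replicate 2, the labels list 1 IgG library with no number, and the pair were taken to be the same. Fold enrichment means the pileup of fragments at the peak divided by the local IgG background. The sites were selected on the measured peaks of both factors in all 4 lists, so the peak heights below are a description and were not tested.

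HSF1 is the main transcription factor of the heat shock response. It binds DNA as a trimer at heat shock elements, which are inverted repeats of a short GAA unit, and its best-known targets are genes for molecular chaperones, which fold and refold proteins. MYC pairs with MAX, binds the E-box CACGTG and its variants, and occupies a large share of active promoters in cancer cells.

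The recognition letters of HSF1 were searched as GAANNTTCNNGAA, a 13-bp element of 3 units, and its reverse complement, on both strands. In 56 of the 348 shared promoter sites (16.1%, 95% Wilson interval 12.6% to 20.3%) the HSF1 interval held at least 1 such element. The elements below are those of 9 of the 10 chaperone sites with one, of JMJD6, and of the strong sites at LRIF1, SPEN and TRA2B. CCT8, the other chaperone site, is not shown. They are shown on the plus strand of hg38 with the element in capitals, because they carry the letters that set these sites apart from most of the 348. The HSPB1 element lay in intron 1, 955 bp downstream of the gene's 5′ end and 1089 bp from the HSF1 summit.
ST13 (chr22:40856748-40856776): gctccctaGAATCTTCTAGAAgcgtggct
HSPA8, first (chr11:123062171-123062199): ctatcttaGAACCTTCCAGAAggggcccg
HSPA8, second (chr11:123062346-123062374): ccgcagcgTTCTGGAACTTTCaagctcgc
HSPH1 (chr13:31161943-31161971): actgatcaGAACTTTCCAGAAtctgcggc
CHORDC1 (chr11:90223084-90223112): cgtTTCAGGAACCTTCGCGAATTTTCcgg
CCT4 (chr2:61888595-61888624): actgccTTCACGAACCTTCCAGAAagcggc
HSPE1 (chr2:197500062-197500091): gctcggTTCCAGAACTTTCCAGAAaatgcc
PPID (chr4:158722973-158723002): gaactaGAAATTTCCAGAAACTTCcgcacc
HSPB1 (chr7:76303614-76303643): atcgaaGAACTTTCCGGAAGTTTCtgagag
DNAJA1 (chr9:33025268-33025296): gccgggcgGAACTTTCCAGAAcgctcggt
JMJD6 (chr17:76726608-76726636): aagtcgccTTCCAGAAAATTCactcccca
LRIF1 (chr1:110963285-110963313): gtgcgtgaGAATCTTCCAGAAggtttgag
SPEN (chr1:15835784-15835812): ctccatctTTCCAGAAACTTCtctgagaa
TRA2B (chr3:185938270-185938298): tgaatcccTTCTAGAACTTTCcagggaac

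Most of these elements have 3 units, and some run on. Among the 56 sites, the longest run was 3 units at 50, 4 units at 5 and 5 units at 1. The run of 5 units was at CHORDC1, which encodes an HSP90 cochaperone, 21 bp upstream of the gene's 5′ end. The runs of 4 units were at CCT4, HSPE1, PPID, HSPB1 and an unnamed lncRNA gene on chromosome 18. These 6 were singled out after their sequences were seen, and 5 of the 6 are chaperone or cochaperone genes.

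In 20 of the 348 sites the HSF1 interval held both a heat shock element and the E-box CACGTG. An element was in 56 intervals and an E-box in 64, and intervals with an element were longer (median 1114 bp against 482.5 bp). An element in the interval together with an E-box within 100 bp of the MYC summit was found at 4 sites. The E-boxes nearest to an element are shown for 5 of the 20 sites, with the E-box in capitals. These had the closest centres among the sites measured. LY6K, GASAL1 and NEIL2 held both and were not among the sites measured.
unnamed lncRNA gene (chr11:64185405-64185434): cgccctcgcggtCACGTGgcatttccggaa
HSPH1 (chr13:31161991-31162020): caccggcccctcCACGTGccacttccgctt
CTSZ (chr20:59008126-59008155): ttccaagcgtgcCACGTGggcaaggggaag
PRKCSH (chr19:11435317-11435346): acactttggggtCACGTGctcattccgttt
ZNF451-AS1 (chr6:57173252-57173281): acagtggccctcCACGTGaagttaagtttc
The centres of the element and the E-box were 13 bp apart at the unnamed lncRNA gene, 49 bp at HSPH1, 42 bp at CTSZ, 69 bp at PRKCSH and 87 bp at ZNF451-AS1. At the unnamed lncRNA gene this element lay 569 bp from the HSF1 summit. Among the sites shown, only PRKCSH had its E-box within 100 bp of the MYC summit. HSPH1 encodes the HSP110 chaperone, CTSZ the lysosomal protease cathepsin Z, and PRKCSH the β-subunit of glucosidase II, an enzyme of glycoprotein folding in the endoplasmic reticulum.

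The upstream DNA of 2 element sites is shown at greater length, 121 bp in all, because no exon of any annotated transcript falls there. Capitals again mark the element.
FBXO15 and TIMM21 (chr18:74147907-74148027): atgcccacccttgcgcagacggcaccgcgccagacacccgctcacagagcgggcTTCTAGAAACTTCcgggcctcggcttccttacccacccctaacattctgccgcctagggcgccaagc
TRA2B (chr3:185938224-185938344): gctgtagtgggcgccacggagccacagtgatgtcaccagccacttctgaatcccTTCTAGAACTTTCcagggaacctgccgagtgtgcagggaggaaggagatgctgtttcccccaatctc
The element was centred 124 bp upstream of FBXO15 and 181 bp upstream of TRA2B. The TRA2B stretch also held 1 CCAAT box, the FBXO15 stretch held none, and neither held an E-box.

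HSF1 signal at most shared promoter sites was low and MYC signal was higher. The factors had different antibodies and p thresholds (1e-04 for HSF1 and 1e-10 for MYC), so their heights are not on a common scale. Over all peaks of the lists the median was 5.00 and 5.21 for HSF1 and 12.2 and 10.5 for MYC, in replicates 1 and 2. HSF1 fold enrichment ran from 2.74 to 70.6 in replicate 1, with a median of 5.75, and from 2.76 to 79.5 in replicate 2, with a median of 6.08. MYC fold enrichment ran from 6.52 to 77.8 with a median of 20.5 in replicate 1 and from 4.60 to 78.1 with a median of 13.2 in replicate 2. The mean HSF1 enrichment exceeded the mean MYC enrichment at 51 of 348 sites (14.7%). HSF1 exceeded 10-fold in both replicates at 56 sites and 20-fold in both at 24. The HSF1 peak had a p of 1e-10 or lower, the threshold that the MYC lists met, in both replicates at 124 sites, in 1 replicate at 103 and in neither at 121.

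HSF1 and MYC heights were at most weakly related across the sites. Across the 348 sites, Spearman's rho was 0.61 between the HSF1 replicates, 0.63 between the MYC replicates and -0.14 between the HSF1 and MYC means. Between HSF1 and MYC lists of the same number it was -0.12 for replicate 1 and 0.03 for replicate 2, so the sign was not the same in both. These are descriptions over sites that share libraries, depth and the IgG background.

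**Figure D1:**
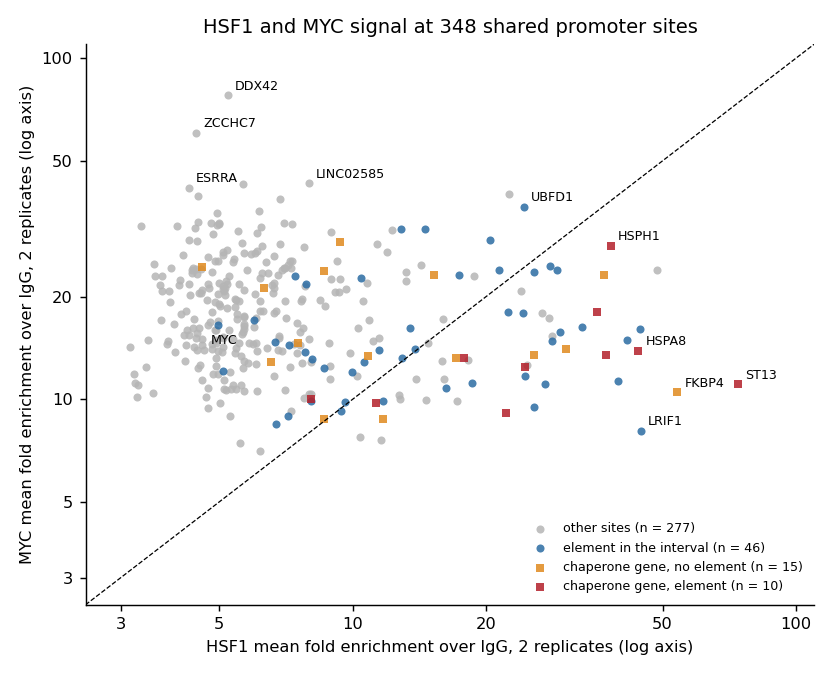
Mean fold enrichment of MYC (vertical log axis) against that of HSF1 (horizontal log axis) at the 348 shared promoter sites, 1 point per site, with squares for sites at chaperone genes, dark points for other sites with a heat shock element in the HSF1 interval, and the dashed line where both are equal. ST13 lies farthest to the right, at 74.1 in HSF1 and 11.1 in MYC, and DDX42 lies highest, at 5.24 in HSF1 and 77.9 in MYC.

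The site with the highest mean HSF1 signal was the promoter of ST13 (Hip, a cochaperone of HSP70), which faces XPNPEP3 on the other strand (chr22:40855235-40857685). HSF1 enrichment there was 70.6 and 77.6 in replicates 1 and 2, and MYC enrichment was 12.4 and 9.71. FKBP4, which encodes an immunophilin that works with HSP90, had HSF1 values of 28.4 and 79.5 and MYC values of 9.43 and 11.5 (chr12:2794053-2795242). The HSF1 values of FKBP4 differed between replicates by more than those of ST13.

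The promoter between BANF1, which encodes a chromatin-tethering protein of the nuclear envelope, and EIF1AD had HSF1 values of 26.3 and 70.7 and MYC values of 26.7 and 21.3 (chr11:66001828-66003156). The site at LRIF1, a nuclear receptor interacting factor, and an unnamed lncRNA gene had HSF1 values of 33.6 and 55.7 and MYC values of 8.64 and 7.55 (chr1:110961689-110964245). SPEN, which encodes a transcriptional corepressor, had HSF1 values of 37.5 and 51.4 and MYC values of 23.8 and 8.35 (chr1:15834400-15836527). At all of these sites the HSF1 value was higher in replicate 2.

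HSPA8, the constitutive cytosolic HSP70, had HSF1 values of 42.7 and 45.5 and MYC values of 17.4 and 10.4 (chr11:123061561-123063388). An unnamed lncRNA gene on chromosome 18 had HSF1 values of 40.5 and 42.9 and MYC values of 18.0 and 11.9 (chr18:79961688-79962740). The promoter between FBXO15 and TIMM21, the latter a subunit of the mitochondrial import machinery, had HSF1 values of 40.2 and 38.9 and MYC values of 11.3 and 11.3 (chr18:74147595-74148737). At these 3 sites the HSF1 replicates lay close together.

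HSPH1 had HSF1 values of 23.9 and 52.4 and MYC values of 33.3 and 23.01 (chr13:31160689-31162730). CHORDC1 had HSF1 values of 20.6 and 54.04 and MYC values of 13.7 and 13.3 (chr11:90221876-90223705). Of the 10 sites highest in HSF1, 5 were thus at chaperone or cochaperone genes, namely ST13, FKBP4, HSPA8, HSPH1 and CHORDC1.

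The sites highest in MYC were others. DDX42, which encodes a DEAD-box RNA helicase, had MYC values of 77.8 and 78.1 and HSF1 values of 4.75 and 5.72 (chr17:63773878-63774087). ZCCHC7, a part of the nuclear RNA surveillance machinery, had MYC values of 76.5 and 44.6 and HSF1 values of 3.17 and 5.71 (chr9:37120227-37120399). LINC02585 had MYC values of 53.3 and 32.6 and HSF1 values of 8.74 and 7.17 (chr3:48663638-48664136). The HSF1 interval was short at the first pair, 210 bp at DDX42 and 173 bp at ZCCHC7, against a median of 537.5 bp over the 348 sites.

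An unnamed lncRNA gene on chromosome 8 had MYC values of 49.2 and 36.1 and HSF1 values of 6.80 and 4.52. ESRRA, which encodes the estrogen-related receptor α, had MYC values of 51.9 and 31.5 and HSF1 values of 5.07 and 3.48 (chr11:64305113-64305530). HSF1 enrichment was below 10 in both replicates at each of these sites.

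The promoter between SLC30A7, a zinc transporter gene, and EXTL2 had MYC values of 55.1 and 23.8 and HSF1 values of 4.39 and 4.57 (chr1:100895715-100896055). TMEM185B had MYC values of 38.5 and 38.8 and HSF1 values of 3.78 and 9.95 (chr2:120222647-120223643). The promoter between UBFD1 and EARS2, a mitochondrial tRNA synthetase gene, had MYC values of 33.5 and 39.8 and HSF1 values of 18.9 and 29.7 (chr16:23556921-23557657). ZNF33A, a zinc finger gene, was also among the 10, with MYC values of 41.9 and 29.3 and HSF1 values of 6.47 and 5.82 (chr10:38010692-38011328).

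MYC signal was also set beside that of promoters without HSF1. In 6191 MYC intervals within 1 kb of a start site that overlapped no HSF1 interval, the median MYC enrichment was 15.9 in replicate 1 and 11.5 in replicate 2, against 20.5 and 13.2 at the shared sites. MYC intervals were also longer at the shared sites, with a median of 1050 bp against 830 bp. No test was made, since MYC peaks chose both groups.

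Chaperone genes made up a small part of the 348 sites and a large part of the tallest. The lists searched were 6 families of chaperones and their cochaperones, with 108 annotated genes. Of these, 26 (24.1%) had a shared promoter site, while 1.86% of the 20005 protein-coding genes did. For HSF1 with or without MYC the count was 32 of 108 chaperone genes, where the background was 2.23% of protein-coding genes, and for MYC it was 67 of 108, where the background was 32.9%. The share of HSF1-bound genes whose HSF1 site overlapped MYC was 81.25% for the chaperone genes (26 of 32) and 83.6% for all protein-coding genes (373 of 446). The lists were made with the results of these data known, and no set test was run.

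Because HSPA1A and HSPA1L share 1 site, the 26 genes stood at 25 sites. Their median HSF1 enrichment was 10.5 in replicate 1 and 21.6 in replicate 2, against 5.67 and 5.82 at the other 323 sites. Their median mean MYC enrichment was 13.5, against 17.2 at the others. Of the 25 sites tallest in HSF1, 9 were chaperone sites.

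Among the HSP70 and HSP110 genes, 8 of 16 had a shared site, namely HSPA1A, HSPA1B, HSPA1L, HSPA4, HSPA4L, HSPA8, HSPA9 and HSPH1. HSPA1B, the stress-inducible HSP70, had HSF1 values of 22.7 and 28.6 and MYC values of 20.03 and 6.99 (chr6:31826677-31828048). The site shared by HSPA1A and HSPA1L had lower HSF1 values of 7.46 and 16.0, with MYC at 9.01 and 8.56 (chr6:31814323-31815868). HSPA1A and HSPA1B are near-identical copies, so fragments may have been divided between them by the alignment, and their heights are uncertain.

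HSPA4L, a relative of HSP110, had HSF1 values of 18.4 and 55.6 and MYC values of 24.5 and 21.9. HSPA9, the mitochondrial HSP70, had HSF1 values of 6.70 and 12.1 and MYC values of 31.0 and 27.0, the highest mean MYC signal of the 25 chaperone sites. HSPA4 had HSF1 values of 5.29 and 11.98 and MYC values of 9.18 and 8.38. HSPA6, another inducible HSP70, had an HSF1 promoter site that overlapped no reproducible MYC interval.

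Among the chaperonin and prefoldin genes, 7 of 16 had a shared site, and 6 of these 7 encode subunits of the cytosolic chaperonin, which folds actin and tubulin (CCT4, CCT5, CCT6A, CCT7, CCT8 and TCP1). Their HSF1 signal ranged widely, from 24.8 and 46.4 at CCT4 to 3.85 and 9.27 at CCT7. TCP1 stood at a promoter it shares with MRPL18, with HSF1 values of 13.9 and 46.6. The seventh was HSPE1, the mitochondrial co-chaperonin, with HSF1 values of 15.1 and 20.5 and MYC values of 16.1 and 10.4.

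Among HSP90 and its cochaperones, 6 of 16 genes had a shared site, namely AHSA1, CHORDC1, FKBP4, PPID, PTGES3 and SUGT1. By gene 5′ ends, the HSP90 genes themselves were not among them. Under this rule a peak at a transcript start farther than 1 kb from the gene's 5′ end could not count for that gene. PPID, a cyclophilin that binds HSP90, had HSF1 values of 5.62 and 16.9 and MYC values of 10.3 and 9.31, and PTGES3, which encodes the cochaperone p23, had HSF1 values of 7.002 and 14.7 and MYC values of 18.0 and 8.81.

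The other chaperone families had few shared sites. They were DNAJA1, DNAJB2 and DNAJC9 among 39 J-domain genes, ST13 among 11 nucleotide exchange factors and adaptors, and HSPB1 among 10 genes of small heat shock proteins and the collagen chaperone. HSPB1, which encodes HSP27, had HSF1 values of 24.8 and 24.1 and MYC values of 15.3 and 9.52. BAG3, DNAJB5, DNAJB6, HSPB2 and SERPINH1 had an HSF1 promoter site and no shared site.

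The 2 HSF1 replicates differed at the chaperone sites. HSF1 enrichment was higher in replicate 2 at 23 of the 25 chaperone sites, with a median ratio of replicate 2 to replicate 1 of 2.09. At the other 323 sites it was higher in replicate 2 at 192 (59.4%), with a median ratio of 1.09. The 2 chaperone sites with the higher value in replicate 1 were HSPB1 and CCT6A. Whether culture, antibody reaction or depth differed between the replicates in a way that bears on this was not tested.

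**Figure D2:**
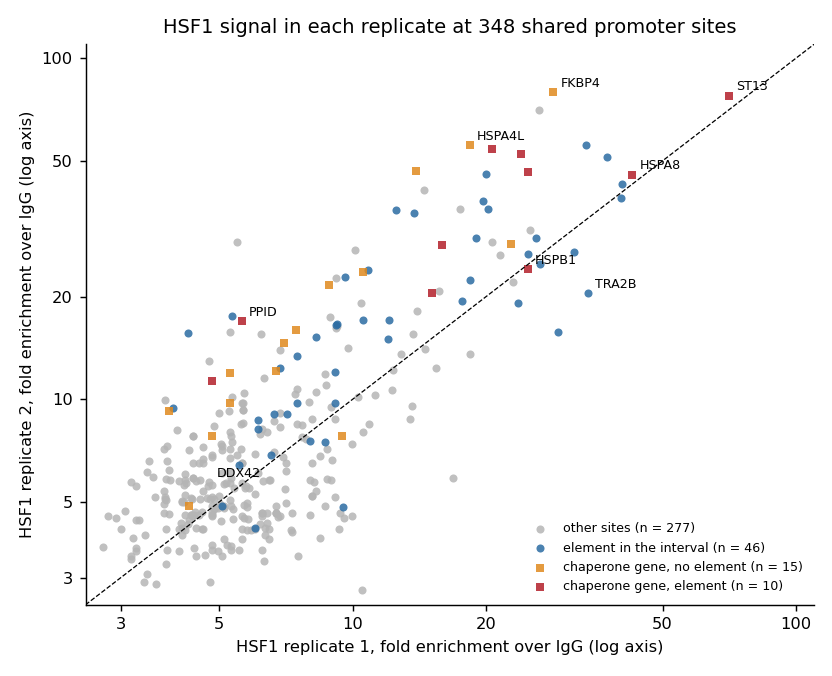
HSF1 fold enrichment in replicate 2 (vertical log axis) against replicate 1 (horizontal log axis) at the 348 shared promoter sites, 1 point per site, with squares for chaperone sites and the dashed line where both replicates are equal. Of the 25 squares 23 lie above the line, with FKBP4 at 28.4 and 79.5.

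Outside the chaperones, the 15 other lists had 0 to 5 genes each with a shared promoter site, to be read against 1.86% of all protein-coding genes. Splicing factors had 5 of 40, namely HNRNPA2B1, HNRNPK, SRSF9, TRA2A and TRA2B. Cytosolic ribosomal proteins had 3 of 77 (RPL18, RPL32 and RPL39), although 79.2% of that list had a MYC promoter site. Ribosome biogenesis had NOP58 and WDR12 of 31, and translation factors had EIF2B5 and EIF4A2 of 45. The mitochondrial list had TFB1M and TIMM21 of 24.

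No gene of the proteasome (31 genes), the Mediator complex (32) or the unfolded protein and integrated stress response (23) had a shared promoter site. The share over all protein-coding genes was 1.86%, at which lists of this size may hold none, so this is no result about these families. The MAX network had MXD4 and MYC itself of 13 genes. At the MYC gene, HSF1 enrichment was 4.57 and 4.67 and MYC enrichment was 19.7 and 8.33, and its mean HSF1 enrichment ranked 284 among the 348 sites. The study reports a small HSF1 peak at the MYC promoter and reads it as probably weak or absent binding. MXD4, a repressor that also pairs with MAX, had HSF1 values of 8.12 and 6.49 and MYC values of 43.0 and 22.1, and the summits of both factors fell on the same base. The remaining lists had 1 gene each. They were UBQLN1 of 15 for ubiquitin and protein clearance, JMJD6 of 13 for heat shock factors and their regulators, and GAS5 of 22 for snoRNA hosts. The others were CCNT2 of 45 for cyclins and their kinases, PLK2 of 21 for mitotic kinases and JUN of 24 for AP-1. Single genes in lists of this size are close to the background share and are given as counts only.

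**Figure D3:**
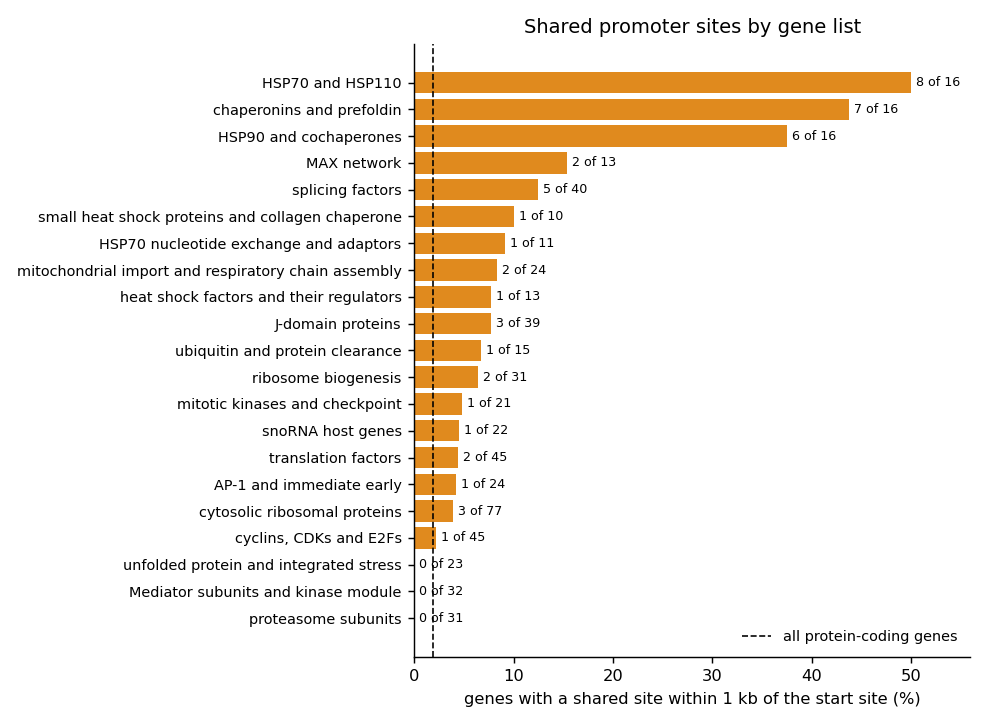
Share of the genes of each list with a shared promoter site (horizontal axis, percent), with the count beside each bar and the dashed line at the share of all protein-coding genes. The longest bars are HSP70 and HSP110 (8 of 16), chaperonins and prefoldin (7 of 16) and HSP90 with its cochaperones (6 of 16).

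Of the 5 genes that the study names with both factors, HSPA1B, JMJD6 and ESRRA had a shared promoter site. JMJD6, which encodes an oxygenase, had HSF1 values of 8.02 and 7.57 and MYC values of 15.9 and 11.6 (chr17:76726382-76726741). At NEAT1, a nuclear lncRNA, the HSF1 interval at the gene's own 5′ end had values of 5.98 and 17.8 and overlapped no MYC interval (chr11:65421989-65423088). A second HSF1 interval, with its midpoint 1329 bp upstream of NEAT1 and at the 5′ end of an unnamed lncRNA gene, was a shared promoter site with HSF1 values of 5.07 and 7.31 and MYC values of 6.52 and 7.58 (chr11:65421226-65421664). The shared site of MED15, a Mediator subunit gene, lay in intron 8, 73555 bp from the 5′ end, and so was not a promoter site.

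The element was compared between classes within 100 bp of the strongest HSF1 summit, because its letters played no part in choosing the sites. It was present in 15 of 348 shared promoter sites (4.31%, Wilson interval 2.63% to 6.99%) and in 19 of 118 HSF1 promoter sites without MYC (16.1%, 10.6% to 23.8%). The odds ratio was 0.235 (two-sided Fisher's exact test, p = 0.000107, adjusted p = 0.000321 over 3 tests). In windows of the same length around all 38899 gene start sites the element was found in 0.301%. In the whole interval it was found at 56 of 348 (16.1%) against 47 of 118 (39.8%).

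The class without MYC is partly a matter of the MYC replicates. Of its 118 sites, 56 overlapped a peak of MYC replicate 1, 4 a peak of replicate 2, and 59 no peak of either, and against these 59 the odds ratio was 0.176 (12 of 59, Fisher's exact test, p = 9.1e-05). With only HSF1 peaks at 1e-10 or lower, the counts were 14 of 124 against 12 of 53, and the odds ratio of 0.435 had p = 0.064 by Fisher's exact test, so the difference no longer passed 0.05.

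HSF1 signal and base composition moved with this comparison. The median of the mean HSF1 enrichment was 6.08 at shared promoter sites and 7.16 at HSF1 promoter sites without MYC, and the median GC content of the windows was 62.7% and 53.7%. Split into 3 groups by HSF1 enrichment over both classes, with limits at 5.43 and 8.05, sites with an element in the interval were 2 of 132, 9 of 113 and 45 of 103 for the shared class, from the lowest group to the highest. For the class without MYC they were 6 of 24, 12 of 42 and 29 of 52. In windows above the pooled median GC content, the element was within 100 bp of the summit at 7 of 201 shared sites and 4 of 32 sites without MYC, and at or below that median at 8 of 147 and 15 of 86. The part of signal and composition in the difference was not tested.

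**Figure D4:**
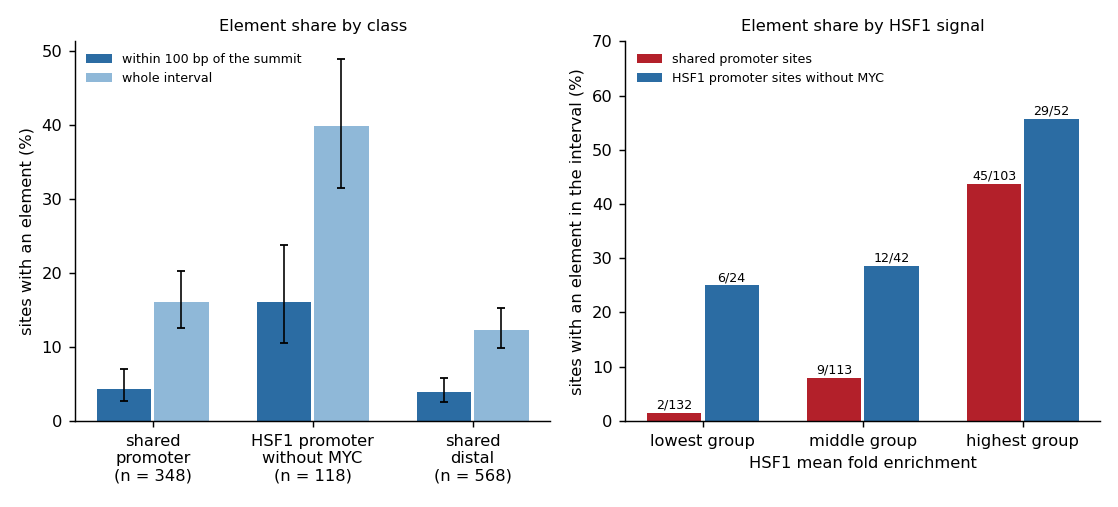
Left, share of sites with a heat shock element (vertical axis, percent, with 95% Wilson intervals) within 100 bp of the HSF1 summit and in the whole interval, for 348 shared promoter sites, 118 HSF1 promoter sites without MYC and 568 shared distal sites. Right, share with an element in the interval in 3 groups of HSF1 enrichment (limits at 5.43 and 8.05), with counts above the bars, from 2 of 132 to 45 of 103 at the shared promoter sites.

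Shared distal sites, the 568 HSF1 intervals that overlapped MYC more than 1 kb from any start site, had the element at 22 (3.87%, Wilson interval 2.57% to 5.79%). The difference from shared promoter sites was not detectable (odds ratio 1.12, two-sided Fisher's exact test, p = 0.733, adjusted p = 0.733). Their median mean HSF1 enrichment was 6.07, close to the 6.08 at shared promoter sites, and their median GC content was 51.7%. Overlap with MYC itself was found at 348 of 466 HSF1 intervals at promoters (74.7%) and at 568 of 1675 farther away (33.9%).

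The E-box CACGTG was searched within 100 bp of the MYC summit. It was present at 23 of 348 shared promoter sites (6.61%, Wilson interval 4.44% to 9.72%) and at 527 of 6191 MYC promoter sites without HSF1 (8.51%, 7.84% to 9.23%). The odds ratio was 0.761 (two-sided Fisher's exact test, p = 0.234, adjusted p = 0.351), so no difference was detectable. Around all gene start sites the E-box was found in 4.92%. With a window of 200 bp, with CACGCG counted as well, or with protein-coding start sites only, the lower share at shared sites passed 0.05 unadjusted, as given with the other settings.

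The 15 sites with a whole element within 100 bp of the HSF1 summit were, after LRIF1 and HSPA8, those of CTSZ, TRA2B, MRPS6, DNAJA1, MORF4L2-AS1, ZNF451-AS1, EFCAB13-DT, EIF4A2, LINC01836, SELENOW, JMJD6, PRKCSH and PLK2. CTSZ had HSF1 values of 31.6 and 27.0 and a mean MYC enrichment of 15.7. TRA2B, a splicing regulator, had HSF1 values of 33.99 and 20.5 and MYC values of 11.1 and 11.02. MRPS6, a subunit of the mitochondrial ribosome, had HSF1 values of 13.7 and 35.1 and MYC values of 14.3 and 9.14. HSF1 was thus higher in replicate 1 at CTSZ and TRA2B and in replicate 2 at MRPS6.

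DNAJA1, an HSP40 that stimulates HSP70, had HSF1 values of 15.9 and 28.4 and MYC values of 11.3 and 6.95. MORF4L2-AS1 had HSF1 values of 23.6 and 19.1 and MYC values of 30.3 and 17.7, and ZNF451-AS1 had 18.4 and 22.4 for HSF1 and 33.0 and 25.7 for MYC. EFCAB13-DT had HSF1 values of 17.6 and 19.5 and MYC values of 16.7 and 5.68. The 10th by HSF1 signal was EIF4A2, a translation initiation helicase, with 12.025 and 15.0 for HSF1 and 16.7 and 15.7 for MYC. MORF4L2-AS1, ZNF451-AS1 and EFCAB13-DT are lncRNA genes named for their neighbours. PLK2 was the lowest of the 15, with HSF1 values of 6.02 and 4.20.

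Most elements did not lie under the HSF1 summit. Over the 56 sites with an element in the interval, the nearest element centre was a median of 116.5 bp from the summit (quartiles 92.75 and 147 bp). The centre lay within 100 bp at 19 sites, 4 more than the 15 above because there the whole element had to lie in the window, farther but within 200 bp at 31, and beyond that at 6. ST13 had its element 107 bp from the summit, SPEN 121 bp, CHORDC1 133 bp and CCT4 141 bp, so none of these entered the count of 15. HSF1 promoter sites without MYC had a median of 107 bp over 47 sites (quartiles 84 and 157 bp), with 22 of 47 (46.8%) within 100 bp against 19 of 56 (33.9%) at shared sites, and this difference was not tested. With windows of 200 bp either side, a setting added after this was seen, the element was found at 52 of 348 shared sites and 40 of 118 without MYC (odds ratio 0.343, two-sided Fisher's exact test, p = 2.46e-05).

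**Figure D5:**
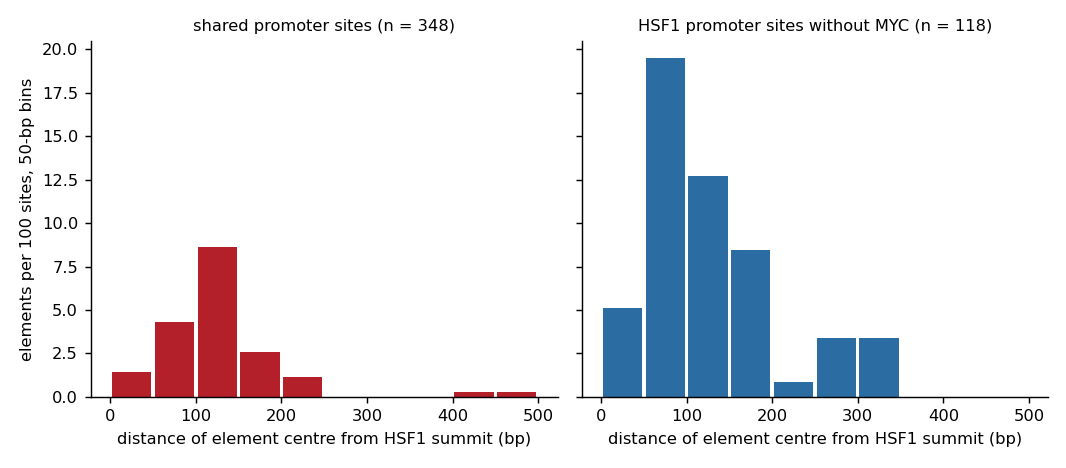
Heat shock elements per 100 sites (vertical axis) by distance of the element centre from the HSF1 summit (horizontal axis, 50-bp bins to 500 bp), for 348 shared promoter sites and 118 HSF1 promoter sites without MYC. The tallest bin is 100 to 149 bp at shared sites, with 30 elements, and 50 to 99 bp at sites without MYC, with 23.

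Sites with an element were taller in HSF1 and not in MYC. With an element in the interval, the median HSF1 enrichment was 12.04 in replicate 1 and 18.3 in replicate 2, and without one 5.40 and 5.67. The medians of the mean MYC enrichment were 13.9 and 17.8. The intervals with an element were also longer, with a median of 1114 bp against 482.5 bp, so they offered more sequence to search. Of the 25 chaperone sites 10 had an element in the interval, and FKBP4 and HSPA4L, both strong in HSF1, had none of these exact letters.

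HSF1 and MYC summits lay close together at most shared sites. The rule asks for overlapping intervals, so short distances are in part set by it. The distance had a median of 84.5 bp (quartiles 35 and 233 bp), and it was 100 bp or less at 198 of 348 sites (56.9%) and over 500 bp at 31. Between the HSF1 replicates themselves the summits of the same site were a median of 66 bp apart. The HSF1 interval lay wholly inside the MYC interval at 219 sites, and the reverse held at 25. At the 56 sites with an element the median distance between the factors was 266.5 bp, with 19 sites within 100 bp, and at the other 292 it was 74 bp, with 179 within 100 bp. Interval length moved with this, as given above, and its part was not tested.

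The 2 factors sat alike around the start sites. The rule asks for overlap and an HSF1 midpoint within 1 kb of a start site, so this is in part set by it. The HSF1 summit was within 500 bp of the nearest gene 5′ end at 309 sites (88.8%) and the MYC summit at 295 (84.8%). The HSF1 summit was upstream of the gene at 180 sites, in exon 1 of the canonical transcript at 59 and in its intron 1 at 47. At the remaining 62 sites it was in none of these places. The MYC interval covered the start site at 305 sites and the HSF1 interval at 215.

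The nearest gene was protein-coding at 253 sites (72.7%) and a lncRNA gene at 95, and 56 sites had only lncRNA start sites within 1 kb. Start sites on both strands lay within 1 kb at 139 of 348 shared sites (39.9%, Wilson interval 34.9% to 45.2%). The count was 16 of 118 at HSF1 promoter sites without MYC (13.6%, 8.52% to 20.9%) and 1992 of 6191 at MYC promoter sites without HSF1 (32.2%, 31.0% to 33.4%). These shares were not tested against each other.

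Other promoter letters were counted in the same windows around the HSF1 summit, with no test. The GC box GGGCGG was present at 50.9% of shared promoter sites, 26.3% of HSF1 promoter sites without MYC, 16.4% of shared distal sites and 33.2% of all start sites. The AP-1 letters TGANTCA ran the other way, at 4.89%, 13.6% and 18.8%, with 5.35% of all start sites. The CCAAT box was at 28.7%, 24.6% and 20.4%, and the ETS core CCGGAA at 15.2%, 6.78% and 6.69%. Around the MYC summit of MYC promoter sites without HSF1 the GC box was at 53.9%, the AP-1 letters at 2.92% and the ETS core at 16.1%, and around the MYC summit of the shared promoter sites they were at 53.7%, 4.89% and 14.9%. Each motif was searched on both strands, and these shares move with GC content.

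Some sites lay near the limits of the rule. BHLHE40 was just inside 1 kb, with its midpoint 983 bp from the start site and HSF1 values of 2.74 and 3.69, and PRSS21 was just outside, at 1020 bp with 12.1 and 13.6. The midpoint fell in the last 100 bp inside the limit at 6 shared sites, and in the first 100 bp beyond it at 4 sites that were left out. The smallest overlap with MYC was 3 bp, at STAG2-AS1, and the next was 93 bp, at WDR38. Among promoter sites without MYC, 1 had a MYC interval within 100 bp, and SYNC followed with a gap of 102 bp. These genes were chosen for their place at the limits.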

How the data were processed

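CUT&RUN libraries from OVCAR8 cells were analysed from peak lists of the 2 HSF1 and 2 MYC libraries. Per the labels and the file headers, the authors aligned reads to GRCh38 with Bowtie 2 and called each list with MACS 2.2.9.1 on paired-end fragments against 1 IgG library, with p thresholds of 1e-04 for HSF1 and 1e-10 for MYC. The authors deposited for each peak a pileup signal, a −log10 p-value and a fold enrichment, the ratio of the pileup to the local IgG background. The larger library of each pair was scaled to the smaller and duplicate fragments were kept once, so heights depend on both depths. The −log10 q-value column was not used, since the headers state that it was not calculated. The IgG library has no list used here and entered only through the calls. The antibody libraries held 8265647 to 10084407 fragments after filtering and the IgG library held 9306942. All peaks on the 24 chromosomes fitted within the hg38 lengths, and the 2 lists of each factor held different peaks.

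Peaks were merged, overlapped (1 bp) and assigned to GENCODE version 44 gene 5′ ends in Python 3.11.15. Quantiles over sites were taken with numpy 2.4.6. Sequences were read from hg38 through pysam 0.24.0, and figures were drawn with matplotlib 3.10.9. Shares carry 95% Wilson intervals, which cover only counting error over sites. Motif shares were compared by two-sided Fisher's exact tests (scipy 1.17.1), adjusted by Benjamini-Hochberg over the 3 tests run. Sites are not replicates of a condition, so these p-values describe the lists. A site missing from a list was not called at that depth and threshold. Merging, overlap and motif matching were tested on simulated data. The comparison was that of 348 shared sites with 118 HSF1 promoter sites without MYC. The letters of the windows were shuffled, and in each run 20 elements were planted among the 118 sites only. All were found in 20 of 20 runs. The test passed 0.05 in 20 of 20 runs with them and in 0 of 20 without. So large a planted difference was sure to pass, so the runs check the matching and say nothing on the difference in the data.

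The sites and gene lists were chosen with earlier results of these data known. The genes named are those the study names with both factors, the 10 shared promoter sites highest in HSF1, the 10 highest in MYC (1 of which is not reported here), the sites with a heat shock element near the HSF1 summit, and the genes of 21 lists defined by symbol. Other genes named were chosen after their values were seen, as said beside them. The alternatives cover how replicates were combined, each list left out, thresholds, overlap, start sites and motif definitions.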

Additional observations from a re-analysis of the deposited data

How the results depend on the processing

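Depth and the calling threshold limit what a missing peak means, and both the handling of replicates and the threshold moved the number of shared sites. The number of shared promoter sites, 348 by the rule, was 1711 with the union of the replicates, 124 with HSF1 peaks at 1e-10 or lower, and 343 to 960 with 1 list left out, with 960 in the absence of HSF1 replicate 2 and 798 in that of HSF1 replicate 1. The other 4 definitions of overlap and start sites gave 292 to 414.

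The lower share of heat shock elements at shared promoter sites than at HSF1 promoter sites without MYC kept its direction under all 15 alternatives, with odds ratios of 0.207 to 0.285 with 1 list left out, and of 0.49 with 2 units and 0.446 with 1 mismatch allowed, against 0.235 by the rule. It passed 0.05 in all but 1, HSF1 peaks at 1e-10. There the odds ratio rose to 0.435 and fewer sites were compared, and the part of each was not tested. Against shared distal sites (odds ratio 1.12 by the rule) no direction held: it was 0.599 to 1.37 with 1 list left out, 0.933 with an overlap of 0.5 of the shorter interval, 0.955 within 500 bp of the start site, 0.805 with 2 units and 0.975 with 1 mismatch allowed. With windows of 200 bp it was 1.52 (Fisher's exact test, p = 0.0473 unadjusted), and the cause was not tested.

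For the E-box (odds ratio 0.761 by the rule) the share at shared sites was lower and, by Fisher's exact test, passed 0.05 unadjusted with protein-coding start sites only (0.499, p = 0.0119), with CACGCG counted (0.733, p = 0.0328), with windows of 200 bp (0.70, p = 0.0152) and without HSF1 replicate 2 (0.739, p = 0.0317). It ranged from 0.683 to 0.785 with 1 list left out, and it turned to 1.13 in whole intervals (Fisher's exact test, p = 0.289). The causes were not tested.

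The median distance between the summits, 84.5 bp, was 85 to 98 bp with 1 list left out, 97 bp with HSF1 peaks at 1e-10, 82.5 bp with an overlap of 0.5 of the shorter interval, 80 bp within 500 bp, 91 bp with transcript start sites and 77 bp with protein-coding start sites. With HSF1 and MYC lists of 1 number only, there were 1175 sites at 78 bp for replicate 1 and 771 sites at 80 bp for replicate 2, a spread of 1.41 bp (SD, n = 2). The 1 mismatch, the windows of 200 bp and the removal of sites with any MYC peak were chosen after seeing the data. No paired analysis was possible because no result is a test over samples in which the number could be a block, and the labels do not say that equal numbers mark a shared culture.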

Other observations

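The shared promoter sites were spread over all chromosomes but Y. Chromosome 19 held most, 34 of 348 (9.77%), where it holds 5.72% of the annotated genes, and chromosome 15 held 2. Chromosome 21 held 9 (2.59% of the sites and 1.48% of the genes). Per 100 MYC promoter intervals there were 8.13 sites on chromosome 19, 12.7 on chromosome 21 and 9.72 on X. Chromosome 8, which carries the HSF1 and MYC genes, held 18 (5.17% of the sites and 4.07% of the genes). The study states that both genes are amplified in OVCAR8. The part of copy number in the shares by chromosome was not tested.

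Several tall HSF1 promoter sites had no reproducible MYC interval. The tallest was at DSCAML1, with HSF1 values of 112 and 77.4 and 3 heat shock elements in the interval, followed by PWWP3A with 26.0 and 40.7 and 4 elements, BCO2 with 26.8 and 35.4, and SERPINH1, the collagen chaperone HSP47, with 30.9 and 29.2. These were the 4 sites with the highest mean HSF1 enrichment of the 118.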
